A study of Homo sapiens with 4 samples.

Results

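MicroRNA genes were followed through a splicing-modulator experiment in the H929 cell line, which was established from human multiple myeloma. They were taken as every array row annotated with a single gene symbol that starts with MIR and a digit, or with MIRLET, leaving out host genes whose symbols end in HG. There were 1506 such rows for 1470 genes, among 135750 rows tested. Of these, 358 were above background in both arrays of at least 1 group and 1148 were not, and these are kept apart throughout. Total RNA came from 2 samples labelled as meayamicin B, a small molecule that acts on the SF3B complex of the spliceosome, given at 3 nM for 8 h, and from 2 labelled as untreated. The labels do not say whether replicates were separate cultures, so every p-value below covers only how far these 4 arrays scatter, and that scatter could be technical. The study as a whole concerns splicing modulation, dependence on BCL2 and sensitivity to venetoclax.

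A microRNA gene is transcribed as a long primary transcript, often from an intron of a host gene. DROSHA with its partner DGCR8 cuts out a hairpin in the nucleus, XPO5 exports it, DICER1 cuts it to a duplex, and an Argonaute protein (AGO1 to AGO4) carries the mature strand to messenger RNAs that match its seed, bases 2 to 8. Mirtrons are an exception: their hairpin is a whole short intron, so splicing takes the place of the DROSHA cut. The arrays were labelled as whole transcripts from a standard total RNA kit, so a row may read a primary transcript, an intron, a hairpin or another RNA with the same letters, and these cannot be told apart. In a culture, fewer cells with an RNA and less of it per cell cannot be told apart either.

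The sequences that follow are those of the genes on which the results turn, taken from RefSeq on GRCh38.p14. The mature strands are shown with the seed in capitals, because the seed groups microRNAs by their targets.
hsa-miR-579-3p: uUCAUUUGguauaaaccgcgauu
hsa-miR-221-3p: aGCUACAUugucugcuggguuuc
hsa-miR-222-3p: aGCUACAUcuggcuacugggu
hsa-miR-1184: cCUGCAGCgacuugauggcuucc
The seeds of hsa-miR-221-3p and hsa-miR-222-3p are identical, and no other of the 2545 mature strands in the table holds it. The seed of hsa-miR-579-3p is shared with 1 other strand, hsa-miR-664b-3p. In the MIR579 hairpin (minus strand, chr5:32394378-32394475), shown because its row differed most, the capitals mark both mature arms.
MIR579: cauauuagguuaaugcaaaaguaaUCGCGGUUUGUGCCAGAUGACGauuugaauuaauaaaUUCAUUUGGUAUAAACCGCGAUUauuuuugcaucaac
The next 3 hairpins, MIR6728 (minus strand, chr1:8866502-8866590), MIR6781 (minus strand, chr17:42823880-42823943) and MIR1229 (minus strand, chr5:179798278-179798346), are shown for their last 3 bases, in capitals. CAG is also how most introns end.
MIR6728: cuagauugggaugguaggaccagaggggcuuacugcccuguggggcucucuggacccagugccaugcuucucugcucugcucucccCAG
MIR6781: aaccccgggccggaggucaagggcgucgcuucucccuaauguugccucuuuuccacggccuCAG
MIR1229: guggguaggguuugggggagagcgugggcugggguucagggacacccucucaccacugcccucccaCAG
The last pair, MIR4737 (minus strand, chr17:60043025-60043105) and MIR8075 (plus strand, chr13:113262920-113262999), are shown because each holds a stretch that occurs again without overlap, in capitals.
MIR4737: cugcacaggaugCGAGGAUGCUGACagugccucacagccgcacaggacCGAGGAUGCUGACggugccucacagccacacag
MIR8075: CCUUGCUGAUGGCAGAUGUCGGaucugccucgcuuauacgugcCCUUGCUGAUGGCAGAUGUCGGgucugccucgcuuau

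Background was the 95th percentile of 612 negative control rows on each array. It stood at 5.03 and 5.13 on the log2 scale on the meayamicin B arrays, against 4.50 and 4.76 on the untreated arrays. Arrays of one group correlated at Pearson's r = 0.981 (meayamicin B) and 0.984 (untreated), and arrays of different groups at 0.9754 to 0.9795. All 8 plasma cell markers were above background, with group means of 8.94 to 13.19 under meayamicin B and 9.03 to 13.27 untreated. Of the 8, 6 had a log2 difference below 0 without a call, and PRDM1, a transcription factor of plasma cells, was called higher (0.45, SE 0.18, limma trended fit adjusted p = 0.0215). Of the markers measured for other cells, 1 of 4 for T cells, 1 of 5 for monocytes, 1 of 2 for mature B cells, 2 of 3 for erythroid cells and 2 of 3 for fibroblasts were above background, and none of these markers passed either limma fit described below (2 monocyte markers had an unadjusted p under 0.05). Their part in the results was not tested.

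Few microRNA rows passed the threshold after adjustment over all rows. In limma with its default prior, the row-by-row model that borrows variance across the table, 0 of 1506 rows had an adjusted p under 0.05, and 116 (7.70%) had an unadjusted p under 0.05. Over all rows that fit called 22, or 0.0162%, and 9.42% had an unadjusted p under 0.05. In limma with a prior that follows the signal and resists outliers, called the trended fit here, 10 of the 1506 rows passed, 7 higher and 3 lower under meayamicin B. The trended fit called 1.17% of all rows, 0.248% higher and 0.922% lower, so the 10 calls together are no larger a share than the background. By direction, the 7 higher calls are a larger share of the 1506 rows than 0.248%. The 3 lower calls are a smaller share than 0.922%. The difference between directions was not tested. Without meayamicin B replicate 2 the count was 2, without untreated replicate 2 it was 4 and without untreated replicate 1 it was 6. Of the 10 rows, 8 were above background in both arrays of a group, and some passed that filter only through the group in which they were high.

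MIR579, the intronic microRNA gene in ZFR, differed most. Its row read 6.98 and 7.18 on the meayamicin B arrays, against 4.09 and 5.23 on the untreated arrays, of which only 1 was above background. The groups did not overlap, and the log2 difference was 2.42 (SE 0.36, limma trended fit adjusted p = 0.00808, default fit 0.0995). The row of ZFR, a zinc finger RNA-binding protein, had a log2 difference of -0.27 (SE 0.19, limma trended fit adjusted p = 0.613). MIR579 stayed under the 0.05 threshold in the trended fit when any 1 of the 4 arrays was left out, with log2 differences of 1.85 to 2.99. Its hairpin is poor in G and C (32.7%), unlike most bright members.

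MIR4737 lies within the span of HEATR6, whose strand is not in the tables used here. It read 9.97 and 10.21 on the meayamicin B arrays, against 9.15 and 8.91 on the untreated arrays. It was the brightest row to pass: the groups were apart and the log2 difference was 1.06 (SE 0.20, limma trended fit adjusted p = 0.00617). It also passed without any 1 array, at 0.94 to 1.19. The HEATR6 row read 7.76 and 8.03 on the meayamicin B arrays, against 7.21 and 7.47 on the untreated arrays, a difference of 0.56 that did not pass (SE 0.21, limma trended fit adjusted p = 0.238).

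MIR6728 is an intronic gene in ENO1, which encodes the glycolytic enzyme enolase. It read 6.44 and 6.20 on the meayamicin B arrays, against 5.28 and 4.84 on the untreated arrays, and both pairs were apart. The log2 difference was 1.26 (SE 0.23, limma trended fit adjusted p = 0.0339), while the ENO1 row differed by -0.11 (SE 0.18). MIR6781, in the autophagy gene BECN1, read 5.24 and 5.30 on the meayamicin B arrays, against 3.96 and 3.74 on the untreated arrays, which were not above background. Set against the untreated backgrounds, which stood below those of the meayamicin B arrays, it was at least 1.56-fold higher (limma trended fit adjusted p = 0.0226). The BECN1 row differed by -0.25 (SE 0.20). Neither held under every loss of an array: MIR6728 passed only without untreated replicate 1 (adjusted p = 0.0473) and MIR6781 in none of the 4 cases (0.0630 to 0.137).

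MIR8075 sits in CUL4A, which encodes a scaffold of a ubiquitin ligase. It read 8.31 and 8.81 on the meayamicin B arrays, against 7.21 and 7.76 on the untreated arrays, with no overlap. The log2 difference was 1.08 (SE 0.27, limma trended fit adjusted p = 0.0482), and that of CUL4A was -0.30 (SE 0.18). The call was lost without meayamicin B replicate 2 (adjusted p = 0.228) and without untreated replicate 1 (0.204), and when arrays were centred on ribosomal protein genes (0.0512).

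MIR1184-3, at chrX:155457517-155457615, is 1 of 3 near-identical gene copies on the X chromosome, so its row cannot be assigned to 1 copy. It read 8.67 and 8.95 on the meayamicin B arrays, against 8.05 and 8.03 on the untreated arrays, again apart. The log2 difference was 0.77 (SE 0.20, limma trended fit adjusted p = 0.0371), which passed only without meayamicin B replicate 1 when arrays were left out (0.0368) and missed the threshold when arrays were centred on negative controls (0.0642). It lies opposite F8A3, whose own row differed by 0.39 (SE 0.19, limma trended fit adjusted p = 0.210).

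Outside the background filter, 2 more rows passed the trended fit and are named because the count includes them. MIR6505, in the phosphofructokinase gene PFKM, read 4.93 and 5.53 on the meayamicin B arrays, against 3.47 and 3.62 on the untreated arrays. Only 1 meayamicin B array and neither untreated array was above background, so no fold is given for MIR6505 (limma trended fit adjusted p = 0.0196). MIR92B read 3.16 and 3.42 on the meayamicin B arrays, against 4.44 and 5.32 on the untreated arrays. Its untreated mean did not exceed the background of the meayamicin B arrays, so no fold or log2 difference is given for it (limma trended fit adjusted p = 0.0470). MIR6505 kept its call only without meayamicin B replicate 1 (0.0192) and MIR92B only without untreated replicate 1 (0.0304).

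**Figure D1:**
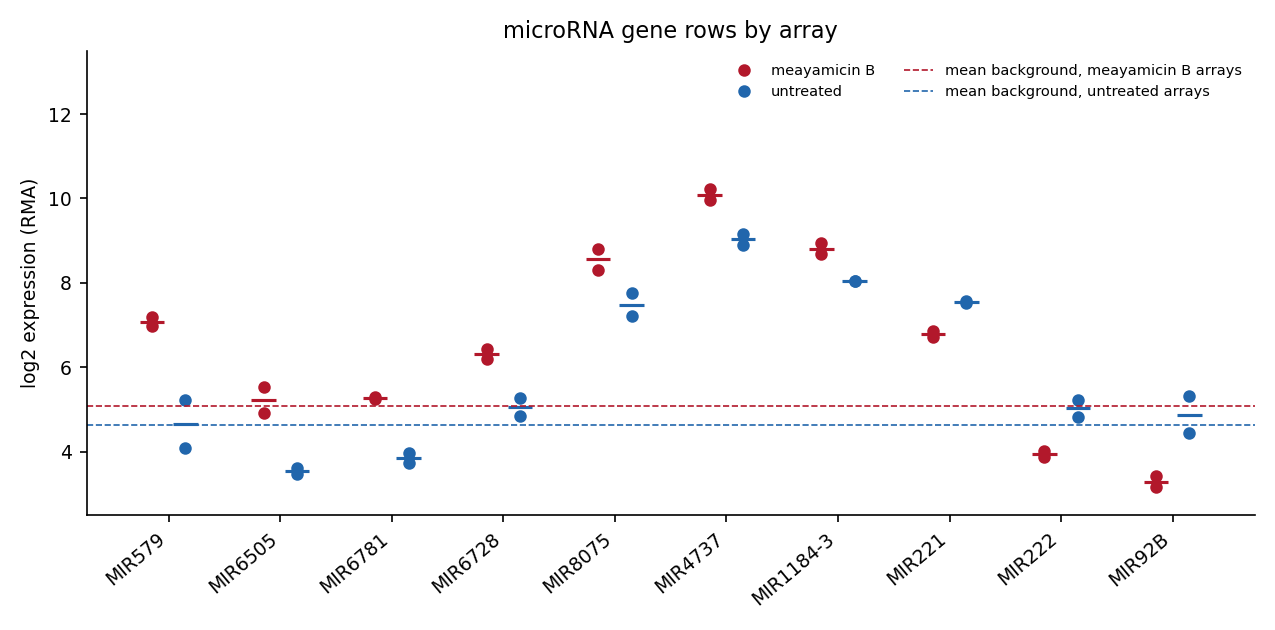
Log2 expression of 10 microRNA gene rows on each array, with meayamicin B (red, left of each pair) and untreated (blue, right); points are arrays, bars are means of 2 arrays and dashed lines are the mean background of each group. MIR579 stands at 6.98 and 7.18 under meayamicin B, against 4.09 and 5.23 untreated, while MIR221 stands at 6.85 and 6.72, against 7.57 and 7.53.

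Both remaining lower calls carry names that disagree with their position. The row annotated MIR548N that passed is placed by its identifier on chromosome 2, while the gene table has MIR548N on chromosome 7. It read 5.12 and 4.97 on the meayamicin B arrays, against 6.60 and 6.35 on the untreated arrays (log2 difference -1.43, SE 0.20, limma trended fit adjusted p = 0.0129). A second row named MIR548N, placed on chromosome 1, was far brighter and did not pass, at 11.57 and 11.46 on the meayamicin B arrays, against 11.20 and 11.55 on the untreated arrays, with overlap. The MIR548AI row is placed on chromosome 16 and its gene on chromosome 6. It read 4.58 and 3.38 on the meayamicin B arrays, against 5.72 and 6.17 on the untreated arrays, and was at least 1.82-fold lower (limma trended fit adjusted p = 0.0326). Neither this call nor that of the MIR548N row on chromosome 2 held under every loss of an array. The log2 differences were then -1.55 to -1.31 for MIR548N and -2.57 to -1.37 for MIR548AI. MIR548 genes belong to a large family derived from a transposable element, with copies on many chromosomes. In all, 27 member rows have this mismatch, and without them 8 of the calls are left, of which only that of MIR92B is lower.

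MIR221 and MIR222, the linked pair with the same seed, lie on the X chromosome with 748 bases between them, inside the long noncoding RNA gene MIR222HG. MIR221 (chrX:45746157-45746266) read 6.85 and 6.72 on the meayamicin B arrays, against 7.57 and 7.53 on the untreated arrays. The groups were apart, but the log2 difference of -0.76 (SE 0.19) missed the threshold (limma trended fit adjusted p = 0.0678). It passed when only rows above background in both arrays of a group were tested (0.0143) and when arrays were centred on negative controls (0.0300). MIR222 (chrX:45747015-45747124) read 3.87 and 4.01 on the meayamicin B arrays, below background, against 4.83 and 5.23 on the untreated arrays, and did not pass (limma trended fit adjusted p = 0.0923), though it did under the same filter (0.0182) and centring (0.0481). MIR222 entered that filter only through the untreated arrays, where it was high, so the filtered value is no added support. The host of both passed with all rows tested: MIR222HG read 8.23 and 7.62 on the meayamicin B arrays, against 8.998 and 9.034 on the untreated arrays, a log2 difference of -1.09 (SE 0.25, limma trended fit adjusted p = 0.0248, default fit 0.208). The host and both microRNA rows had differences of one sign, and in none of the 3 did the groups overlap. Groups were apart and lower in 17.9% of all rows and 27.3% of bright rows. Among bright single-symbol rows outside the microRNA rows the share was 38.6%. Since both microRNA genes lie inside the host, the 3 rows may read 1 transcript and are not separate results.

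Other rows among the 8 highest and 8 lowest differences did not pass when all rows were tested. MIR4653, in AP1S1, read 5.71 and 5.43 on the meayamicin B arrays, against 4.09 and 4.77 on the untreated arrays (log2 difference 1.14, limma trended fit adjusted p = 0.106). MIR6862-2 had a log2 difference of 0.97 and MIR6864 of 0.88. On the negative side, MIR6835 read 4.87 and 5.23 on the meayamicin B arrays, of which 1 was above background, against 5.83 and 6.09 on the untreated arrays. MIR4496, MIR186, MIR4506 and a row named MIR548AU, placed on another chromosome than its gene, were not above background on either meayamicin B array, so their difference has only a bound. MIR4496 was at least 1.19-fold lower, MIR186 at least 1.34-fold, MIR4506 at least 1.47-fold and the MIR548AU row at least 1.30-fold. None of the 4 passed: the trended adjusted p-values of these rows and MIR6835 were 0.128 to 0.227. Of these 8 rows, MIR4653, MIR6862-2, MIR6864, MIR6835, MIR4496 and MIR548AU passed when only rows above background in both arrays of a group were tested. All of these but MIR6862-2 entered that filter only through the group in which they were high. Their passing it is therefore no added support for a difference. The brightest rows did not pass either: MIR6088 read 11.49 and 11.75 on the meayamicin B arrays, against 11.40 and 11.24 on the untreated arrays, and after the MIR548N row on chromosome 1 came MIR3654, which read 11.23 and 11.46, against 11.27 and 11.31.

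As a body, the brighter rows leaned upward by a small amount. To split rows by level without using the direction of change, a row was called bright when its mean over the 4 arrays exceeded the mean background of 4.85, a cut not matched to G and C content. This also gave 358 rows, of which 346 are among the 358 above. Their median log2 difference was 0.19, and 276 of 358 (77.1%) were above 0. That median was 0.10 when arrays were centred on negative controls and 0.25 after quantile normalization. All 29658 bright rows of the array had a median of -0.00198, with 49.7% above 0, and the 14344 other bright rows with a single symbol had -0.08, with 40.4% above 0. The default fit called none of the 358, against 0.0438% of all bright rows. In that fit 49 of the 358 (13.7%) had an unadjusted p under 0.05, against 17.6% of all bright rows. Among the 358 bright members the trended fit called 7, 5 higher and 2 lower, against 4.59% of all bright rows (0.759% higher, 3.83% lower). The groups were apart and higher under meayamicin B in 153 of the 358, against 23.4% of all bright rows, and apart and lower in 24, against 27.3%. Over all 1506 members the median was 0.07, with 60.2% above 0, against 0.02 and 53.5% over all rows. The groups were apart and higher in 401 of them, against 21.1% of all rows, and apart and lower in 184, against 17.9%.

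Base composition moved with this lean. The bright members are rich in G and C, with a median of 63.9% over the hairpin against 46.7% in the other members. Their median log2 difference was 0.13 where the hairpin held up to 50% G and C (24 rows), 0.15 from there to 60% (75 rows), 0.21 to 70% (115 rows) and 0.26 beyond (63 rows). The background control rows of the array, made with a set number of G and C and matching no transcript, had medians of -0.01, 0.04, 0.13 and 0.29 over the same ranges. With the difference of the control row of like composition subtracted, a step chosen after seeing the data, the median of the 277 bright rows with a hairpin sequence was 0.09, and 186 of them were above 0.

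The slope differed between arrays. For hairpins over 70% G and C, the median difference was 0.04 between the arrays numbered 1 and 0.49 between those numbered 2, which share only a number. The control rows in that range gave 0.10 and 0.52. Their median level was 5.36 and 5.71 on the meayamicin B arrays, against 5.278 and 4.997 on the untreated arrays, so the second meayamicin B array was the highest and the second untreated array the lowest. Each of these medians exceeded the background of its array and the 4.85 cut for bright. For hairpins this rich in G and C, passing either therefore does not show that an RNA was detected. Among the 24 negative control rows with a mean above background, 18 were above 0, with a median log2 difference of 0.73. The part of base composition in the lean of the microRNA rows was not tested.

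**Figure D2:**
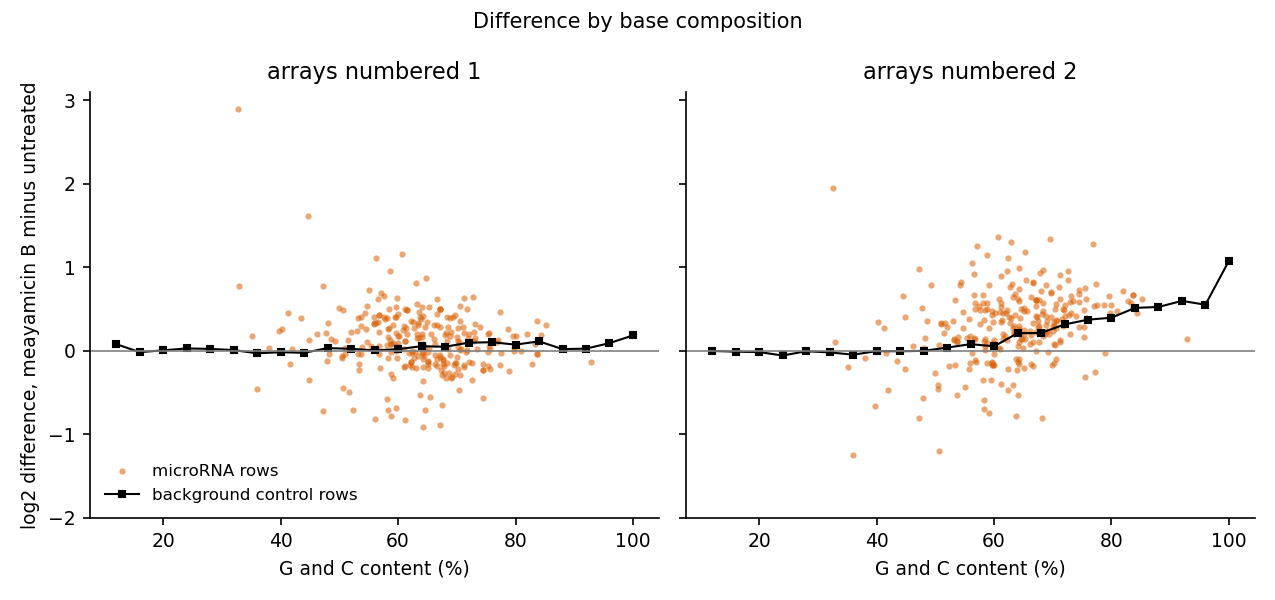
Log2 difference (meayamicin B minus untreated) against G and C content in percent, for bright microRNA rows (orange points, content of the hairpin) and background control rows (black line), between the arrays numbered 1 (left) and 2 (right). Between the arrays numbered 1 the control line stays near 0 up to high content, and between those numbered 2 it climbs, with a median of 0.52 beyond 70%, and the microRNA rows there have a median of 0.49.

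Hairpins that end as an intron does made up a larger share of the bright rows than of the others. Of the 1560 hairpins in the RefSeq table, 227 (14.6%) end in CAG or UAG, searched on the hairpin strand alone. Such an end was found in 26.0% of the bright member rows with a hairpin sequence, and in 8.24% of the others. These shares are not matched for G and C content. Up to 50%, 22 of 593 member rows had the end, then 51 of 336, 58 of 187 and 17 of 83 in the richer ranges used above. Among bright rows alone the counts were 2 of 24, 16 of 75, 38 of 115 and 16 of 63. The part of base composition in the larger share was not tested. The 72 bright rows with such an end had a median log2 difference of 0.26, with 61 above 0, and the 205 without it had 0.19, with 160 above 0. Their median G and C contents were 65.3% and 63.2%. Repeats of at least 12 bases, as in MIR4737 and MIR8075, were in 32 of the 1560 hairpins (2.05%) and in 13 bright member rows, whose median was 0.20.

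Known mirtrons, whose hairpins need splicing to be released, were read from a list of 10, of which 8 had a row of their own and 7 were above background in both arrays of a group. None passed either limma fit over all rows, and 1 had an unadjusted p under 0.05. That was MIR1229, in the glycosyltransferase gene MGAT4B, which read 7.63 and 7.86 on the meayamicin B arrays, against 7.003 and 7.042 on the untreated arrays. The groups did not overlap, and the log2 difference of 0.72 (SE 0.19) missed the threshold (limma trended fit adjusted p = 0.0848) and passed when only rows above background in both arrays of a group were tested (0.0179), while the MGAT4B row differed by -0.74 (SE 0.21, limma trended fit adjusted p = 0.207). MIR1227 differed by 0.30, MIR1237 by 0.26, MIR1224 by 0.19 and MIR1228 by 0.13. MIR1226, in the helicase gene DHX30, differed by -0.17, and MIR1238 by -0.03. The median of the 8 was 0.22, beside 0.19 over all bright members.

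By genomic position, medians of the bright rows ranged from 0.13 to 0.25. Bright rows inside a gene on the same strand had a median log2 difference of 0.20 (185 rows), those with a containing gene on the opposite strand only had 0.25 (38 rows), and those in no gene had 0.16 (73 rows). Rows whose containing gene has no strand in the tables had 0.13 (47 rows). No test was run between these classes.

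Host genes and the microRNA genes inside them were then set side by side. Of the bright members on a host's strand, 158 had a host with a row of its own, in 152 hosts. The member rows had a median of 0.20 with 124 above 0, and the host rows -0.25 with 52 above 0. In 131 of the 158 pairs the member's difference was above its host's. No such count was made for members paired with unrelated genes. Bright protein-coding genes as a whole had a median log2 difference of -0.13, and bright members in no gene had 0.16. Across the 158 pairs, which share arrays and in part hosts, Pearson's r was 0.14 and Spearman's rho 0.15, as a description only. The trended fit called 14 of the 152 hosts, all lower, and 8.99% of 10216 bright protein-coding genes. These sets are unlike, since only 123 of the 152 hosts are bright and some hosts are long noncoding RNA genes. Among 14344 bright single-symbol rows outside the microRNA rows, it called 105 higher and 930 lower. The default fit called none of the 152 hosts. In it 49 hosts had an unadjusted p under 0.05, beside 23.0% of those 14344 rows. The trended count was 9 without meayamicin B replicate 1, 6 without meayamicin B replicate 2 and 3 without either untreated array.

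Those 14 hosts held 15 bright member rows, of which none passed either fit, 2 had an unadjusted p under 0.05 and 11 were above 0. The members had a median log2 difference of 0.17, beside a median of -0.94 for their hosts. The hosts were picked because they were called lower, so their low median follows from that choice. Among all bright members the median was 0.19, with 77.1% above 0. KAT2B, a histone acetyltransferase, had means of 7.59 on the meayamicin B arrays and 9.05 on the untreated arrays, and fell by 1.46 on the log2 scale (SE 0.20, limma trended fit adjusted p = 0.00310). MIR3135A inside it read 9.54 and 9.69 on the meayamicin B arrays, against 9.44 and 9.56 on the untreated arrays. CDK4, a cyclin-dependent kinase of the G1 phase, fell by 1.09 (limma trended fit adjusted p = 0.00403), while MIR6759 in it differed by 0.36.

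SREBF1, a transcription factor of lipid synthesis, fell by 0.98 (limma trended fit adjusted p = 0.0193) and holds 2 members. MIR33B, known for targeting cholesterol transport, read 6.03 and 6.21 on the meayamicin B arrays, against 5.81 and 5.63 on the untreated arrays, and MIR6777 differed by 0.12. MIR186, in ZRANB2, read 4.82 and 4.45 on the meayamicin B arrays, neither above background, against 5.28 and 5.71 on the untreated arrays. ZRANB2, a splicing-related zinc finger gene, read 9.002 and 8.71 on the meayamicin B arrays, against 9.94 and 9.58 on the untreated arrays, and fell by 0.90 (SE 0.22, limma trended fit adjusted p = 0.0215).

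**Figure D3:**
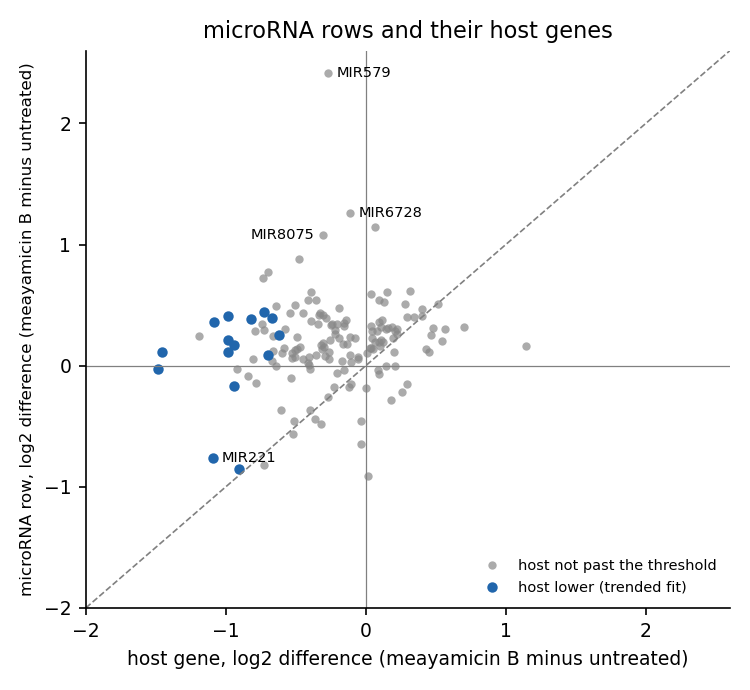
Log2 difference (meayamicin B minus untreated) of each bright microRNA row (vertical axis) against that of its same-strand host gene (horizontal axis); each of the 158 points is a pair, blue points have a host called lower in the trended fit, and the dashed line marks equal differences. Of the 158 points, 131 lie above the line.

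**Figure D4:**
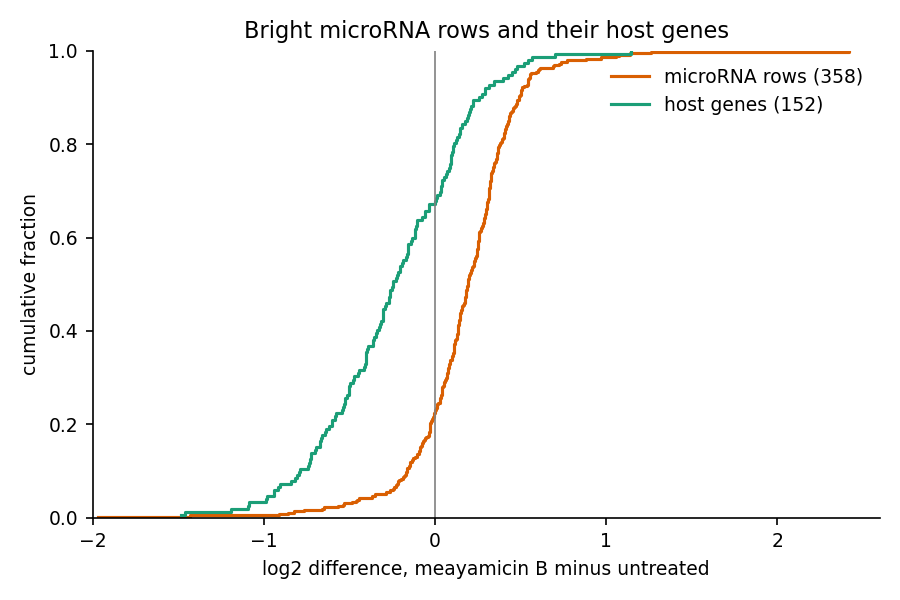
Cumulative fraction of bright microRNA rows (358, orange) and of their host genes (green) against the log2 difference, meayamicin B minus untreated. The orange curve has its median at 0.19 and the host genes theirs at -0.25.

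MicroRNAs known for roles in myeloma and B cells mostly had no row of their own or were not above background. In the miR-17 family clusters, which drive cell growth, 9 of 15 genes had a row of their own and 1 was above background: MIR25, in the replication gene MCM7, read 5.90 and 6.36 on the meayamicin B arrays, against 6.10 and 5.56 on the untreated arrays. The groups overlapped. The 9 were MIR106A, MIR18B, MIR20B, MIR19B2, MIR92A2, MIR363, MIR106B, MIR93 and MIR25. MIR17 and the other genes of its own cluster were not among them, so that cluster was not read here. Among microRNAs tied to p53, 6 of 10 had a row and 1 was above background: MIR34A, a direct p53 target, read 5.95 and 5.91 on the meayamicin B arrays, against 5.92 and 5.60 on the untreated arrays, and the groups overlapped. Of 20 microRNAs reported in myeloma 11 had a row, and MIR221 and MIR222 alone were above background. Of 12 let-7 genes, 8 had a row and none was above background. No member of these lists passed either limma fit over all rows, with an unadjusted p under 0.05 for 1 miR-17 cluster gene, 2 myeloma microRNAs and none of the p53 or let-7 genes.

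The genes that make microRNAs were read from a list of 27, of which 26 had a row and 23 were above background in both arrays of a group. In the trended fit 4 were lower under meayamicin B and none was higher, and the median log2 difference was -0.10. That is 4 of 26, beside the 8.99% of bright protein-coding genes called. These sets are unlike, since only 22 of the 26 are bright and AGO4, among the 4, is not. The default fit called none, with 9 at an unadjusted p under 0.05, beside 23.0% of the bright single-symbol rows outside the microRNA rows. The trended count was 2 without meayamicin B replicate 2 or untreated replicate 1, and 1 without untreated replicate 2.

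DROSHA, the nuclear nuclease that starts the pathway, read 8.21 and 8.39 on the meayamicin B arrays, against 9.15 and 9.51 on the untreated arrays. The groups were well apart, and it fell by 1.03 on the log2 scale (SE 0.21, limma trended fit adjusted p = 0.0129). The call was lost without untreated replicate 2 (adjusted p = 0.103). DICER1, which cuts the hairpin in the cytoplasm, read 6.69 and 6.57 on the meayamicin B arrays, against 7.45 and 7.50 on the untreated arrays, and fell by 0.84 (SE 0.19, limma trended fit adjusted p = 0.0479). It did not pass without any 1 of the 4 arrays (0.0856 to 0.250) or after quantile normalization (0.0899).

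TUT7, which adds uridines to precursor hairpins, read 10.19 and 10.04 on the meayamicin B arrays, against 10.92 and 10.95 on the untreated arrays. It fell by 0.82 (SE 0.19, limma trended fit adjusted p = 0.00467) and passed without any 1 array. Its relative TUT4 read 4.33 and 4.82, below background, on the meayamicin B arrays, against 5.50 and 5.58 on the untreated arrays, and did not pass (limma trended fit adjusted p = 0.136). AGO4 read 3.86 and 3.19 on the meayamicin B arrays, below background, against 5.002 and 4.990 on the untreated arrays, so that no fold can be given (limma trended fit adjusted p = 0.0405). Its call held only without meayamicin B replicate 1.

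The rest of the pathway did not pass. DGCR8, the partner of DROSHA, read 6.09 and 6.57 on the meayamicin B arrays, against 6.15 and 6.73 on the untreated arrays, with overlap. A second, dimmer DGCR8 row read 4.46 and 4.55 on the meayamicin B arrays, below background, against 4.58 and 5.55 on the untreated arrays, and did not pass (limma trended fit adjusted p = 0.639). The exporter XPO5 differed by -0.16 (SE 0.20) and AGO2, the slicing Argonaute, by 0.26 (SE 0.23). SRRT, which links the cap-binding complex to primary microRNA processing, had the largest positive difference, reading 9.12 and 9.49 on the meayamicin B arrays, against 8.59 and 8.68 on the untreated arrays (0.67, SE 0.21, limma trended fit adjusted p = 0.0695). SRSF3, a splicing factor that also binds primary microRNAs, differed by 0.46 (limma trended fit adjusted p = 0.133).

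**Figure D5:**
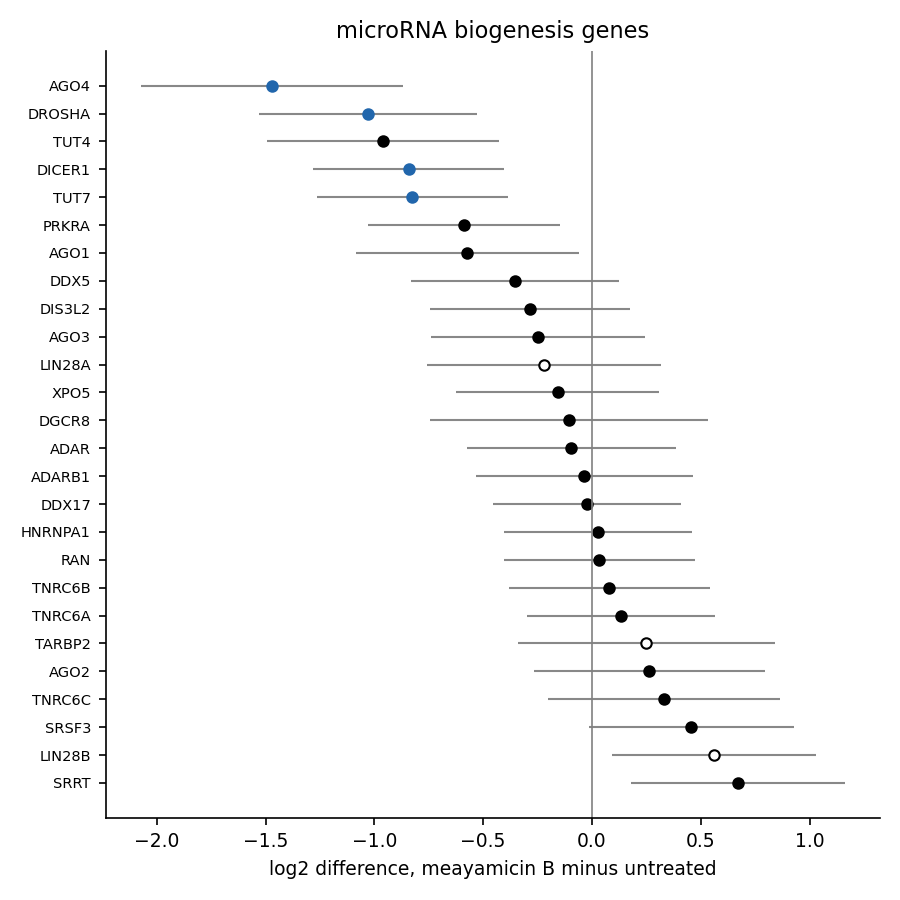
Log2 difference (meayamicin B minus untreated) of 26 microRNA biogenesis genes with 95% intervals from the limma default fit (grey lines). Blue points passed the trended fit (AGO4, DROSHA, DICER1 and TUT7, all lower), and open points were not above background in both arrays of either group.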

How the data were processed

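The authors deposited 1 value per row and array on the log2 scale. Per the submitters' processing notes these are RMA values from Transcriptome Analysis Console on hg38, and no version is given in the sources used here. The file holds 138745 rows, of which 2995 are control rows and 135750 were tested. Rows were named from GEO's platform annotation, and positions, hairpins and strands came from RefSeq (GRCh38.p14). Hairpins matched 1199 of the 1506 member rows. A host is the same-strand containing gene, protein-coding before others and then the shortest, read from its brightest single-symbol row.

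All rows were fitted in limma 3.58.1 (R 4.3.3) with lmFit and eBayes, with the default prior and with trend and robust options, without a replicate block, and p-values were adjusted by Benjamini-Hochberg over all 135750 rows at 0.05. Standard errors and intervals are from the default fit (2 residual and 5.12 prior degrees of freedom). The scripts were tested on simulated data. "At least" folds compare the bright group's mean with, for each array of the dim group, the higher of its background and the row's own value.

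The members and gene lists were chosen with earlier results of these data known. Rows named are those called, the 8 highest and 8 lowest differences with groups apart, the 6 brightest and the detected members of the fixed lists. Alternatives covered the prior, a replicate block, 2 filters, quantile normalization, 2 centrings, the background percentile and leaving out each array. With 2 arrays a group, their number limits the precision.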

Additional observations from a re-analysis of the deposited data

Results flagged for a closer look

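A further 332 rows name a microRNA together with other genes and were not used, since their signal cannot be given to 1 gene. The limma trended fit called 22 of them, 6 higher and 16 lower under meayamicin B (6.63%, beside 1.17% of all rows), with log2 differences from -2.08 to 1.04 over all 332. The 232 with a mean above background had a median log2 difference of -0.06, and 21 of them were called, beside 4.59% of all bright rows. They are set out here because they lie outside the rows the comparisons used. The difference from rows with a single symbol was not tested.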

How the results depend on the processing

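Calls depend strongly on the fit. The default prior called none of the 1506 microRNA rows, of the 26 biogenesis genes or of the 152 hosts in place of 10, 4 and 14, and the trended prior called 10 microRNA rows in place of none. With a replicate block, the trended fit called 3546 rows in all, 23 microRNA rows, 7 biogenesis genes and 29 hosts. Same-numbered arrays deviated together at r = 0.02 over all rows and -0.22 over the bright microRNA rows, and the labels tie no number to a shared day, so the numbers were not taken as pairs. A filter on both arrays of a group gave 1682 rows in all (default) and 3425 (trended), 10 and 19 microRNA rows, 8 biogenesis genes and 33 hosts. A filter on the mean gave 1332 and 3112 rows in all, 7 microRNA rows in the default fit, 7 biogenesis genes and 32 hosts. Both filters test fewer rows, and the first may admit a row through 1 group alone, the one in which it is high. Centring on negative controls gave 206 and 2384 rows in all and 22 hosts, and centring on ribosomal protein genes gave 35 rows in the default fit. Leaving out 1 array gave 0 rows in all in the default fit and 462 to 1303 in the trended fit, 2 to 8 microRNA rows, 1 to 4 biogenesis genes and 3 to 9 hosts. The fewest microRNA rows, 2, came without meayamicin B replicate 2, followed by 4 without untreated replicate 2 and 6 without untreated replicate 1.

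Over the 1199 rows with a hairpin sequence, the median was 0.07, and 0.027 after subtracting the control row of like composition. The median of all microRNA rows, 0.07, was 0.18 and 0.19 under the 2 filters, and turned to -0.027 when centred on negative controls. The cause was not tested. The median of bright rows, 0.19, was 0.10 when centred on negative controls, 0.17 when centred on ribosomal protein genes, 0.25 under quantile normalization and 0.15 to 0.24 when 1 array was left out. Over the 277 bright rows with a hairpin sequence it was 0.21, and 0.09 after subtracting the control row of like composition. At the 99th percentile of the negative controls, 200 member rows were above background. Of the 14 named microRNA and biogenesis rows called in the trended fit, 13 remained under quantile normalization (DICER1 was lost) and under centring on negative controls (MIR1184-3) and on ribosomal protein genes (MIR8075). In the other direction, 9 named microRNA rows gained a call under at least 1 filter, and MIR221, MIR222, MIR1229, MIR4653, MIR548AU, MIR6835 and MIR6862-2 did so with the block.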
